A study of Mus musculus with 45 samples.

Results

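The 7 genes described here encode subunits of the GABA-A receptor and were followed in the hippocampus: the alpha subunit genes Gabra2, Gabra3, Gabra4 and Gabra5, the beta subunit genes Gabrb1 and Gabrb2, and the delta subunit gene Gabrd. They were chosen by name, with earlier results of these data known, and all 7 had a row among the 15897 genes of the deposited table. Gabrg1, Gabrg3, Gabrq and Gabrr2, which encode other subunits, served for comparison.

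GABA-A receptors are chloride channels that open when GABA, the main inhibitory transmitter of the adult brain, binds between an alpha and a beta subunit. Most receptors join alpha and beta subunits with a gamma subunit, which holds the receptor at synapses. Receptors with a delta subunit, often paired with alpha4 in granule cells of the dentate gyrus, lie outside synapses and carry a tonic current. The alpha5 subunit is typical of hippocampal pyramidal cells, and alpha2 is found at synapses on the cell body and on the initial segment of the axon.

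The hippocampi came from 45 female C57Bl/6J mice of 4 genotypes on 2 diets, and every mouse was a separate animal. AwTw mice were wild type. AwT+ mice carried human Tau P301L under the CaMKII promoter, which is active in forebrain excitatory neurons. A+Tw mice carried APPswe as a chimeric mouse/human APP695 together with PS1dE9, under the mouse PrP promoter, and A+T+ mice carried all of these transgenes. Standard diet (STD, 5% fat by weight, 0% cholesterol) or typical Western diet (TWD, 21% fat by weight, 0.15% cholesterol, 35% sucrose) was given from 7 to 13 months of age. The groups held 6 mice each, except A+Tw/STD with 5 and A+T+/STD with 4. The labels gave a batch of 0 for 20 mice and of 1 for 25 mice, and batch 0 held a single A+Tw/STD mouse. App and Prnp, whose sequences the APP/PS1 transgenes carry in part, separated every one of the 21 A+ mice from every one of the 24 Aw mice (App 15.05 to 15.80 against 14.29 to 14.86, Prnp 14.66 to 15.02 against 13.28 to 13.98). The markers of neurons, dentate granule cells and pyramidal cells were all measured, with no single value under 5.05.

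Values are variance-stabilized and on a log2-like scale, so that a difference of 1 is about a doubling for well expressed genes. In whole hippocampus, fewer cells of a type and less RNA per cell cannot be told apart. The read depth per mouse is not known from such values. Errors of differences are standard errors of the fit, which rest on the spread between mice. Errors of group means are SDs between mice.

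The 7 genes lie in 5 places of the genome (GRCm38, GENCODE M21). Gabra2 (chr5:70957597-71095849, minus strand), Gabra4 (chr5:71569749-71658308, minus strand) and Gabrb1 (chr5:71658113-72149037, plus strand) share a cluster on chromosome 5. Gabra4 and Gabrb1 point away from each other with overlapping 5′ ends, and their annotated exons share 46 bases, so that reads from those bases could be assigned to either gene if the strand was not used in counting, which the sources used here do not state. Gabra5 (chr7:57407672-57510059, minus strand), Gabrb2 (chr11:42419757-42629028, plus strand), Gabra3 (chrX:72432681-72656848, minus strand) and Gabrd (chr4:155384980-155398112, minus strand) have no exonic overlap with another subunit gene.

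The 250 bases before the RefSeq start (GRCm38.p6) are shown for 3 of the 6 genes that were lower on TWD. A link between these sequences and the diet difference was not tested. Gabrb2 had the largest diet difference, Gabra2 the transcript with the lowest GC content, and Gabra5 the highest level. RefSeq windows matched 6 of the 7 genes, with 10 windows in all, and Gabrd was not among them. Capitals mark the letters TATAAA, searched on both strands, and no other motif was found in these 3.
Gabrb2, chr11:42420190-42420439, plus strand: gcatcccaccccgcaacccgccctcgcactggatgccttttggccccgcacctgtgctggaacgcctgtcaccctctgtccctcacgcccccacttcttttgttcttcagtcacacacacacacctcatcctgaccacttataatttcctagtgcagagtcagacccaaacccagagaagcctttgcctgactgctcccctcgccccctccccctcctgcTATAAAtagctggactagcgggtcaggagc
Gabra2, chr5:71095850-71096099, minus strand: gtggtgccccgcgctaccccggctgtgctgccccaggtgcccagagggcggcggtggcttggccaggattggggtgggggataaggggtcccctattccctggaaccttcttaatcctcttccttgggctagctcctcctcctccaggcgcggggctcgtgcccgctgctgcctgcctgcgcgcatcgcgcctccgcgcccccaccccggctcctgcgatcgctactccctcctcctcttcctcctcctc
Gabra5, chr7:57510060-57510309, minus strand: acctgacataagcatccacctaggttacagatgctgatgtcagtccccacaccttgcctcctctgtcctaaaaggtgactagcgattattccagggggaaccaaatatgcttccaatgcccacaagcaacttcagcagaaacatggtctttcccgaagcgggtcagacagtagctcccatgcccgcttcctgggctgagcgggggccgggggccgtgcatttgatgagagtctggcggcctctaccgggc
Of 3 windows of Gabrb2, that with TATAAA is shown, and the other two (54.0% and 36.8% GC) do not hold these letters. The window shown had 58.8% GC, 8 CG dinucleotides and TATAAA beginning 30 bases before the start. That window lies inside the GENCODE span of Gabrb2 but touches no annotated exon. The window of Gabra2 had 70.0% GC and 18 CG dinucleotides, more GC than 90.8% of the 32851 promoter windows of all genes. The window of Gabra5 had 56.4% GC and 9 CG dinucleotides. Over all genes, 12.4% of windows held TATAAA, and the overlapping windows of Gabra3 held 1 match, on the reverse strand and farther from the start. The cAMP response element TGACGTCA, present in 1.55% of all windows, and the Egr motif GCGTGGGCG, present in 0.536%, were in none of the 10 windows of the subunit genes. A match in letters is a description and not a site.

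The first question was whether TWD changed the subunits irrespective of genotype. All 4 alpha and both beta genes were lower on TWD, with log2 differences of −0.20 to −0.84, while Gabrd was at 0.20 and missed the threshold. Thus 6 of 7 genes passed the test (limma with terms for genotype, diet and batch, adjusted over all genes), all in the same direction. The background was high: 29.4% of all genes passed, and 13.4% passed as lower. The median difference of the 7 genes was −0.44, against −0.00138 over all genes. The 6 genes were correlated between mice (r of 0.66 to 0.93), so they do not count as 6 separate results. The diet groups overlapped for every gene.

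Gabra2 showed the largest diet difference of the alpha subunits. Its values were 8.18 to 10.42 (median 9.45) in the 21 STD mice and 6.63 to 10.05 (median 8.82) in the 24 TWD mice. The lower end moved more than the upper end. The difference was −0.60 ± 0.21 (SE), a ratio of 0.661, with an adjusted p = 0.0349 by limma. Gabra4, the usual partner of the delta subunit, ranged from 8.42 to 9.74 (median 9.16) on STD and from 6.87 to 9.45 (median 8.89) on TWD. The difference was −0.44 ± 0.15 with an adjusted p = 0.0290 by limma. Again the ranges were close at the top and apart at the bottom. Gabra3, a subunit used more outside the hippocampus, was at 9.18 to 10.25 (median 9.92) on STD and at 8.28 to 10.13 (median 9.57) on TWD, a difference of −0.34 ± 0.12 (adjusted p = 0.0294 by limma). Gabra5 had the smallest difference of the 6, −0.20 ± 0.07 (adjusted p = 0.0266 by limma), and also the smallest spread. Its values were 10.92 to 11.67 (median 11.25) on STD and 10.52 to 11.53 (median 11.08) on TWD.

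The beta subunits followed the alpha subunits. Gabrb2 had the largest diet difference of all 7, −0.84 ± 0.27, a ratio of 0.557, with an adjusted p = 0.0217 by limma. Its values were 6.87 to 10.09 (median 9.15) on STD and 6.15 to 9.57 (median 8.30) on TWD. Only 15 of the 15897 genes had a lower difference than Gabrb2, although it was not among the genes with the smallest p (rank 2107). Gabrb1 was at 9.20 to 11.71 (median 10.68) on STD and 8.40 to 11.30 (median 10.14) on TWD, a difference of −0.56 ± 0.20 with an adjusted p = 0.0332 by limma.

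Gabrd went the other way. Its values were 8.08 to 8.88 (median 8.48) on STD and 7.81 to 9.23 (median 8.74) on TWD, a difference of 0.20 ± 0.08. The adjusted p = 0.0525 by limma missed the threshold. A permutation of the diets within genotype and batch gave p of 0.00412 (Gabrb2) to 0.0166 (Gabrd) for the 7 genes, without adjustment over all genes.

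**Figure D1:**
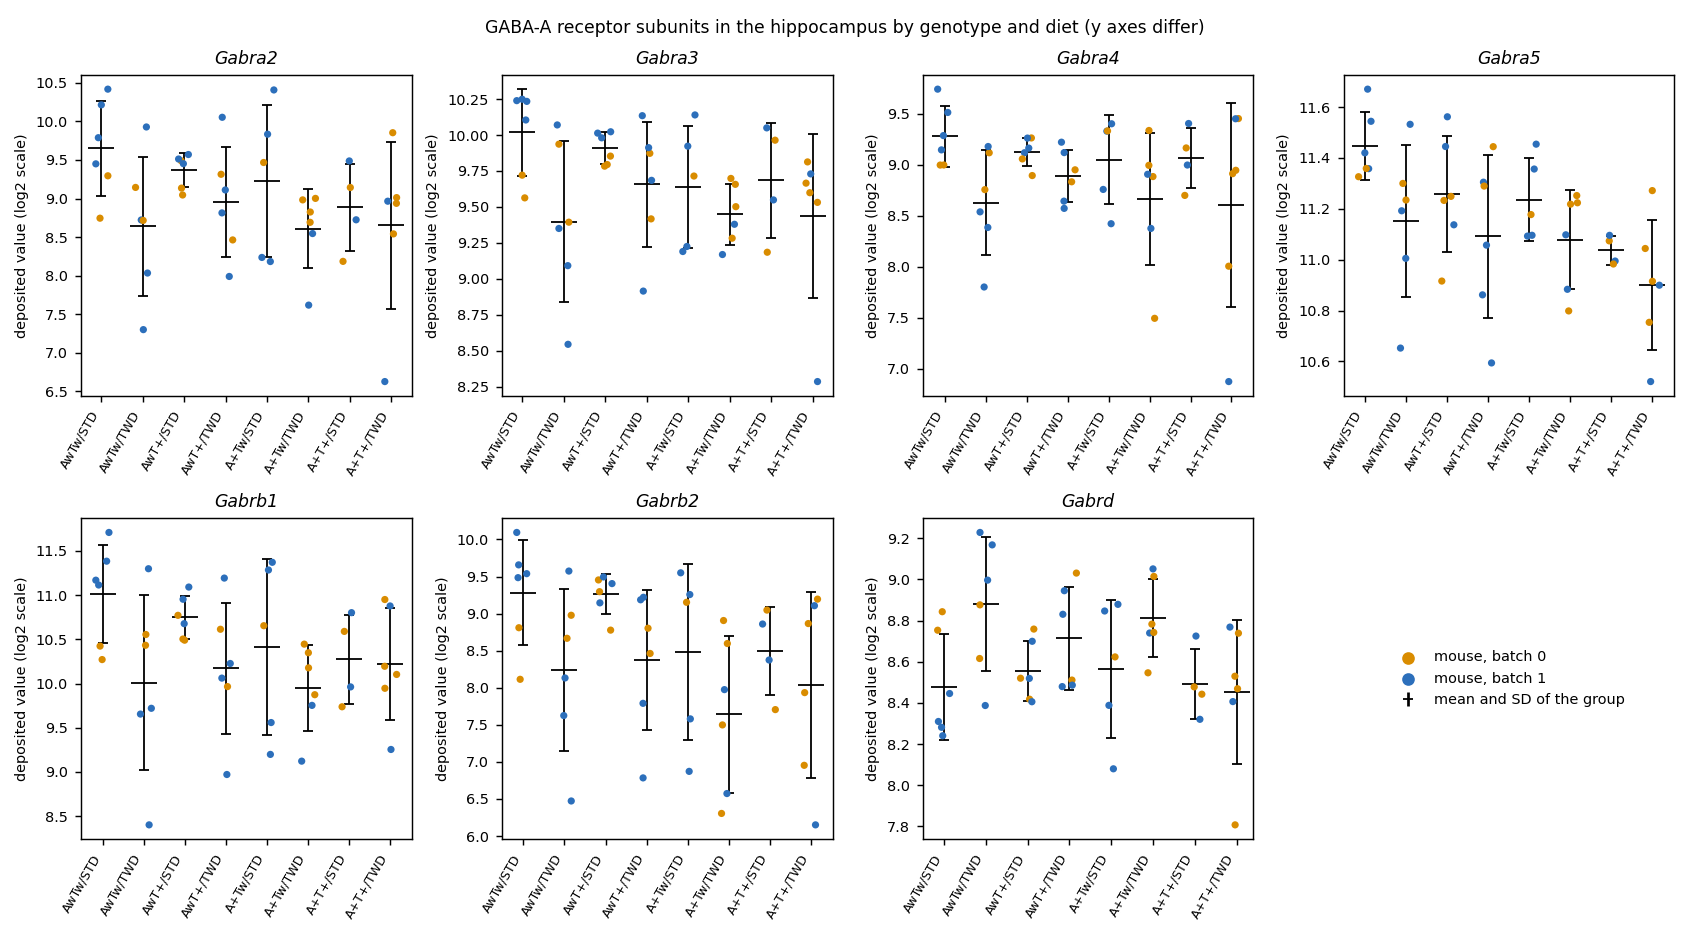
Deposited values (log2 scale, y axes differ between panels) of the 7 subunit genes in the 8 groups. Each point is 1 mouse, coloured by batch, and the black bars give the mean and SD of the group. The lowest point of each of the 7 genes belongs to a TWD mouse, also for Gabrd (7.81, A+T+/TWD).

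The diet difference passed the threshold in 1 batch and not in the other. In the 25 mice of batch 1 alone all 7 genes passed the test, where 40.9% of all genes passed, with differences from −1.28 (Gabrb2) and −1.09 (Gabra2) to −0.37 (Gabra5), and 0.33 for Gabrd. In the 20 mice of batch 0 alone none of the 7 passed by limma, and 0% of all genes did (882 genes at an unadjusted p under 0.05). The batch 0 differences were −0.35 for Gabrb2, −0.22 for Gabra4, −0.09 for Gabra2 and Gabrb1, −0.05 for Gabra3, 0.05 for Gabrd and 0.03 for Gabra5, whose sign thus turned. The median of Gabra2 in batch 1 was 9.51 in 13 STD mice and 8.63 in 12 TWD mice, whereas in batch 0 it was 9.14 in 8 STD mice and 8.96 in 12 TWD mice. The test of the difference between the batches gave no call for any of the 7 genes (differences from −1.08 for Gabra2 to 0.30 for Gabrd, adjusted p from 0.125 to 0.309 by limma). It gave 0% over all genes as well, although 4456 genes had an unadjusted p under 0.05.

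The size of the difference also rested on few mice. A+T+/TWD replicate 1 and AwTw/TWD replicate 3, both of batch 1, had the lowest summed values of Gabra2, Gabra4, Gabrb1 and Gabrb2. Their Gabra2 values were 6.63 and 7.30 and their Gabrb2 values 6.15 and 6.47. Counted from the lowest of 45 mice, they ranked 45 and 44 for summed oligodendrocyte, 40 and 45 for interneuron and 42 and 38 for thalamus markers. Ranks were 34 and 45 for choroid plexus, 44 and 25 for microglia, 34 and 38 for endothelial and 37 and 38 for pyramidal cell markers. They were 31 and 28 for neuron, 17 and 23 for dentate granule and 16 and 4 for astrocyte markers. For the component score, the first residual component, they were 45 and 44. That score is strongly correlated with the genes by which these mice were picked. Without both of these mice 0 of the 7 genes passed by limma, and 1 gene of all passed (0.00629%, 5262 genes at an unadjusted p under 0.05). The differences kept their signs and fell in size to −0.65 for Gabrb2, −0.41 for Gabra2 and −0.15 for Gabra5, with adjusted p from 0.0768 to 0.145 by limma. Both mice were on TWD and were chosen for low values after the data were seen, so that their removal itself moves the difference toward 0. Without AwTw/TWD replicate 3 alone 1 of the 7 passed, where 17.4% of all genes passed, and without AwT+/TWD replicate 3 alone 2 passed, where 18% did. Leaving out any other single mouse left 4 to 7 of the subunits past the threshold. The share of all genes moved as well, from 17.4% to 37.2% over the 45 fits.

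Transcript composition moved with the diet difference. Over all genes, the median diet difference rose from −0.22 in the lowest of 5 equal classes of genes by GC content of the longest transcript (31.0% to 44.0%) to 0.14 in the highest class (55.6% to 78.3%). The transcripts of Gabra2 (38.4% GC), Gabrb1 (40.9%), Gabra4 (42.2%) and Gabra3 (43.1%) are in the lowest class, those of Gabrb2 (44.0%) and Gabra5 (47.1%) in the second, and that of Gabrd (54.7%) in the fourth. With a trend over length and GC content removed from each mouse, Gabrb2 (−0.70, adjusted p = 0.0394 by limma) and Gabra5 (−0.19, adjusted p = 0.0349 by limma) still passed, where 12.7% of genes passed. Gabra2, Gabra3, Gabra4 and Gabrb1 were at −0.28, −0.19, −0.25 and −0.23 and missed the threshold, with adjusted p from 0.0660 to 0.117 by limma, and Gabrd was at 0.06. The part of GC content in the diet difference was not otherwise tested.

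**Figure D2:**
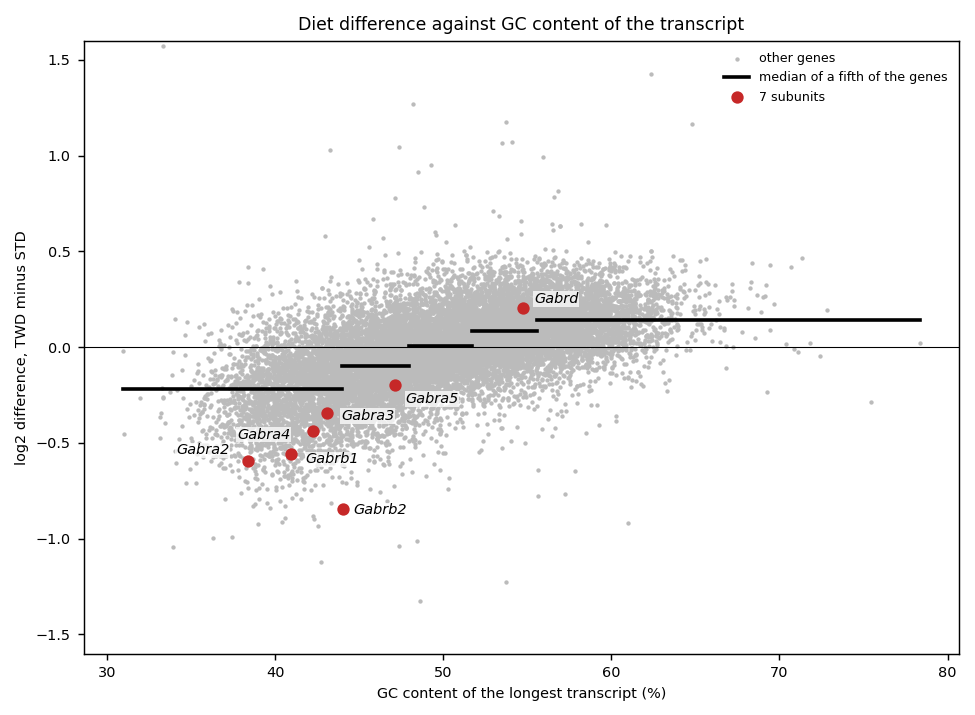
Log2 difference between TWD and STD (y axis) against the GC content of the longest transcript in percent (x axis), 1 grey point per gene. Red points are the 7 subunit genes, and black lines are the medians of 5 classes of the genes by GC content, which rise from −0.22 to 0.14. Of the 7, Gabrb2 lies farthest below the median of its class.

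The subunits also followed the main axis of variation between mice of the same group. The first component of the residuals, scored in each mouse, had r of −0.76 (Gabra5) to −0.97 (Gabrb1) with the 6 alpha and beta genes over 45 mice and of 0.65 with Gabrd. The score had a median of −0.51 in STD and 0.26 in TWD mice, and the medians were −0.16 and 0.16 within batch 0 and −0.87 and 0.85 within batch 1. With the score as a covariate no subunit passed by limma, and 0% of all genes did (1281 genes at an unadjusted p under 0.05). The diet differences were then between −0.13 (Gabrb2) and 0.04 (Gabra2 and Gabrd), and the signs of Gabra2 and Gabrb1 turned. The score contains any diet difference that runs along the same axis, so that score and diet cannot be told apart in this fit.

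**Figure D3:**
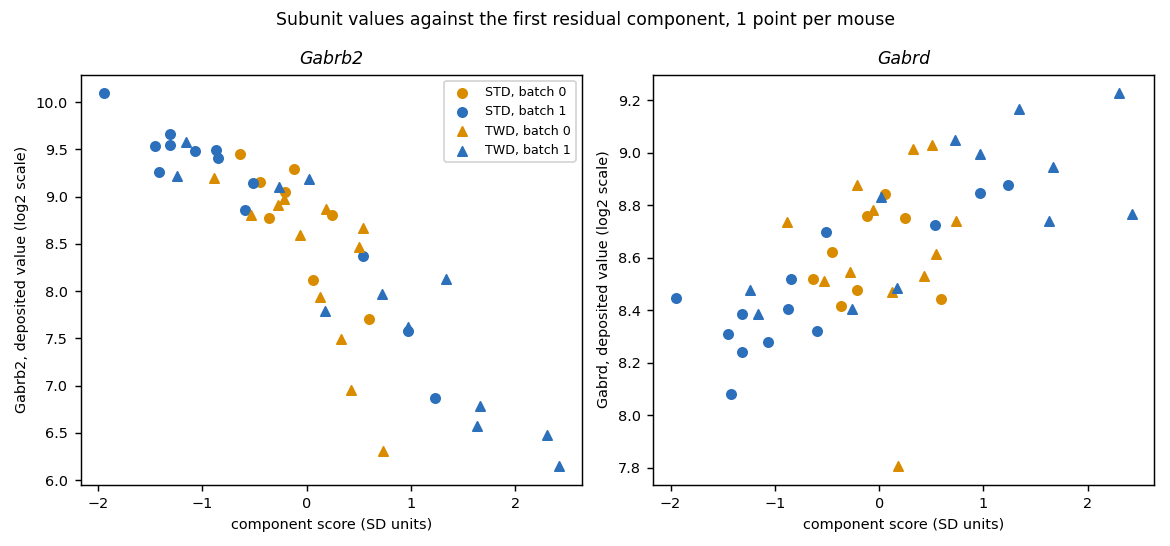
Values of Gabrb2 (left) and Gabrd (right) on the log2 scale against the score of the first residual component (SD units), 1 point per mouse, with the shape for diet and the colour for batch. Gabrb2 falls and Gabrd rises along the score, and the mice with the highest scores are TWD mice of batch 1.

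**Figure D4:**
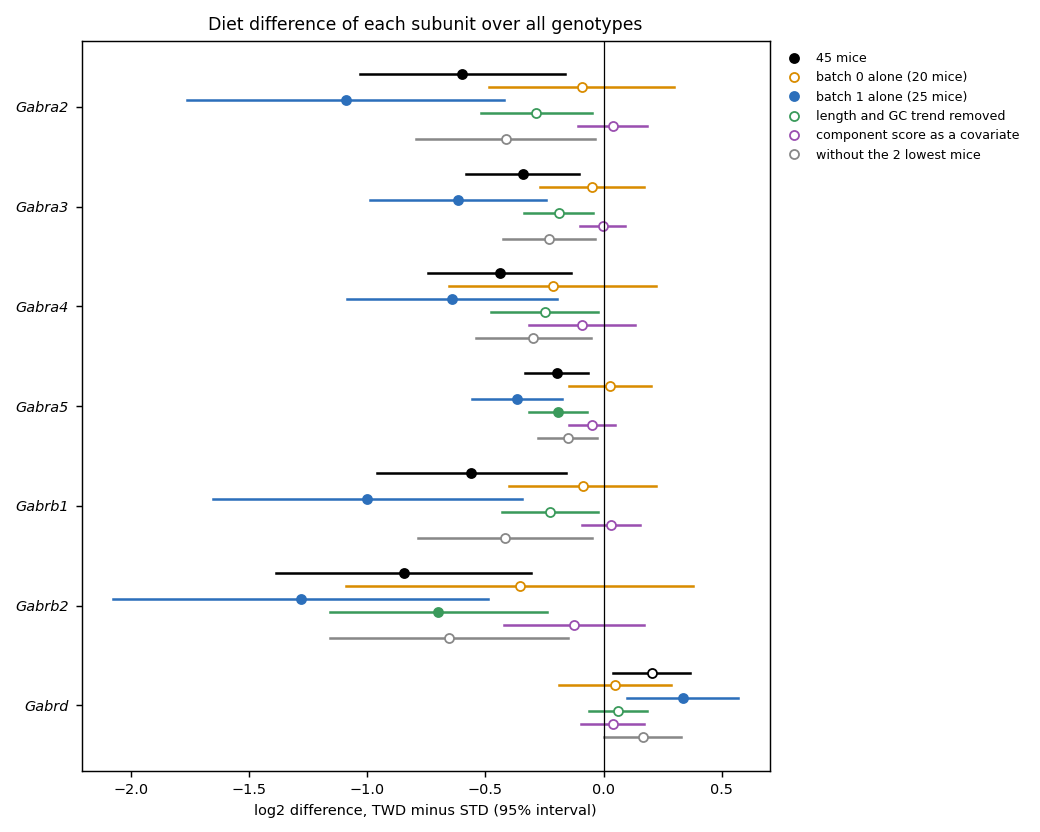
Diet difference (log2, TWD minus STD) of each subunit gene with its 95% interval over all 45 mice, within each batch, after removal of the length and GC trend, with the component score as a covariate and without the 2 lowest mice. Filled points passed the threshold of an adjusted p of 0.05. Batch 1 alone gives the largest differences, and no point is filled in batch 0 alone, with the component score or without the 2 lowest mice.

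The next question was in which genotype the diet difference was seen. In AwTw mice the TWD minus STD differences of Gabrb2, Gabra2 and Gabrb1 were −1.04, −1.01 and −1.001, those of Gabra4, Gabra3 and Gabra5 were −0.65, −0.62 and −0.29, and that of Gabrd was 0.40. None passed the threshold (adjusted p from 0.0562 for Gabra3 to 0.133 for Gabrb2 by limma), where 9.35% of all genes passed, and 6 of the 7 had an unadjusted p under 0.05. The exact test over the 420 splits within batch gave a two-sided p of 0.0381 for Gabra4 and of 0.0524 to 0.105 for the other 6, where 0.00476 is the smallest it can give. Gabra2 in AwTw mice was at 8.74 to 10.42 (median 9.62, n = 6) on STD and at 7.30 to 9.93 (median 8.72, n = 6) on TWD. The highest TWD mouse lay above the STD median, so that the groups overlapped.

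In AwTw mice of batch 1 alone, 3 genes passed, where 25% of all genes passed: Gabra3 (−0.94), Gabrb1 (−1.57) and Gabrd (0.63). In batch 0, with 2 mice per diet, the AwTw differences were between −0.09 (Gabra2) and 0.36 (Gabrb2), and the signs of Gabra3, Gabrb1, Gabrb2 and Gabrd turned. The count in AwTw mice moved with single mice of either diet. It was 7 without AwTw/TWD replicate 5 (38.2% of all genes passed), 4 without AwTw/STD replicate 6 (32.6%) or A+T+/TWD replicate 1 (23.0%), and 3 without AwTw/STD replicate 2 (28.9%). It was 2 without AwTw/TWD replicate 4 (22.4%), and 1 without AwT+/TWD replicate 3 or A+Tw/STD replicate 2 (18.4% each). In 32 of the 45 fits that left out 1 mouse no gene of the whole table passed, so the count of subunits moved with the count of all genes. With only the genes above the lowest 25% by mean tested, Gabra3 passed, where 23.9% of genes did. Mice of other genotypes enter through the shared estimate of the spread and of the batch term.

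In the genotypes with transgenes the differences were smaller and none passed, and 0% of all genes passed in each of them by limma (1183 genes at an unadjusted p under 0.05 in AwT+ mice, 705 for A+Tw and 409 for A+T+). The difference of Gabrb2 was −0.86 ± 0.53 (SE) for AwT+, −0.92 ± 0.57 for A+Tw and −0.49 ± 0.59 for A+T+, with adjusted p of 0.654, 0.706 and 0.998 by limma. Gabrb1 was at −0.56 for AwT+, at −0.50 for A+Tw and at −0.06 for A+T+. Gabrd was at 0.16 for AwT+, at 0.25 for A+Tw and at −0.04 for A+T+. In A+T+ mice the differences of all 7 genes were thus below 0, and in each of the other genotypes those of 6 of 7 were. Of all genes, 51.1% were below 0 in A+T+ mice and 48.7% to 50.9% in the other genotypes. These 4 comparisons do not share mice with each other but share the spread of 1 fit.

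Whether the diet difference itself differed between genotypes was tested against AwTw mice. No subunit passed and 0% of all genes passed in any of the 3 tests by limma (639 genes at an unadjusted p under 0.05 for AwT+, 352 for A+Tw and 1001 for A+T+). In A+T+ mice the diet difference of Gabrb1 was 0.94 ± 0.57 above that in AwTw mice (95% interval −0.22 to 2.10) and that of Gabrd differed from it by −0.44 ± 0.23 (−0.91 to 0.03). Both had an adjusted p = 0.560 by limma. The intervals are wide enough to hold 0 as well as a difference as large as the diet difference in AwTw mice.

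Genotype was compared next. Averaged over both diets, the A+ minus Aw differences of all 7 genes were below 0, from −0.08 (Gabrd) to −0.65 (Gabrb2), as were those of 55.5% of all genes. None of the 7 passed the threshold, where 3.77% of all genes passed. The alpha and beta genes were correlated between mice, so their signs are not separate results. Gabrb2 was at −0.65 ± 0.28 (adjusted p = 0.246 by limma) and Gabra5 at −0.18 ± 0.07 (adjusted p = 0.164 by limma). All 15 choroid plexus markers (median 0.79, none called) and all 12 microglia markers (median 0.78, 10 called) had differences above 0, and their part was not tested. The sign turned for Gabra2 in batch 0 alone (0.0075), for Gabrd in batch 1 alone (0.02) and for Gabra4 with the component score as a covariate (0.02). T+ against Tw mice gave differences of −0.16 (Gabra5) to 0.11 (Gabrb2), none called, where 0.0189% of all genes passed.

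On STD, the Gabra5 values of A+T+ and AwTw mice did not overlap, at 10.98, 10.99, 11.07 and 11.10 in 4 A+T+/STD mice against 11.33 to 11.67 (median 11.39) in 6 AwTw/STD mice. The difference was −0.42 ± 0.15 and did not pass (adjusted p = 0.184 by limma), nor did any other subunit, where 1.32% of all genes passed. Over all genes, 4.31% had groups without overlap in this comparison. Markers of other cell types moved with it. The differences of all 15 choroid plexus markers were above 0, with a median difference of 1.98 and none called, and their summed level was 16.06 to 17.29 in A+T+/STD and 10.82 to 16.73 (median 11.91) in AwTw/STD mice. Of the microglia markers 8 of 12 passed as higher (median 0.75), and of the dentate granule cell markers 1 of 8 passed as lower (median −0.42). Over 45 mice, Gabra5 had r of −0.55 with the summed choroid plexus level and of 0.61 with the dentate granule level. Their part in the difference of Gabra5 was not tested. On TWD, the A+T+ minus AwTw difference was −0.27 ± 0.13 for Gabra5 and −0.43 ± 0.16 for Gabrd, and neither passed (adjusted p = 0.629 and 0.377 by limma, with 0.730% of all genes called). With the component score as a covariate, Gabra5 passed there (−0.32 ± 0.09, adjusted p = 0.0457 by limma), where 1.83% of all genes passed.

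In A+Tw against AwTw mice the differences on STD were −0.20 (Gabra5) to −0.78 (Gabrb2) for the alpha and beta genes and 0.09 for Gabrd, and on TWD they were −0.66 for Gabrb2 and between −0.10 and 0.03 for the other 6. None passed, where 0.925% of all genes passed on STD and 0.824% on TWD. In AwT+ against AwTw mice they were −0.31 to 0.07 on STD and −0.16 to 0.32 on TWD, again none called, with 0% of all genes called on either diet by limma (380 and 484 at an unadjusted p under 0.05). The comparisons on 1 diet share the AwTw mice of that diet. Of all 119 tests of the 7 genes in 17 comparisons, 6 passed, all in the diet difference over all genotypes.

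**Figure D5:**
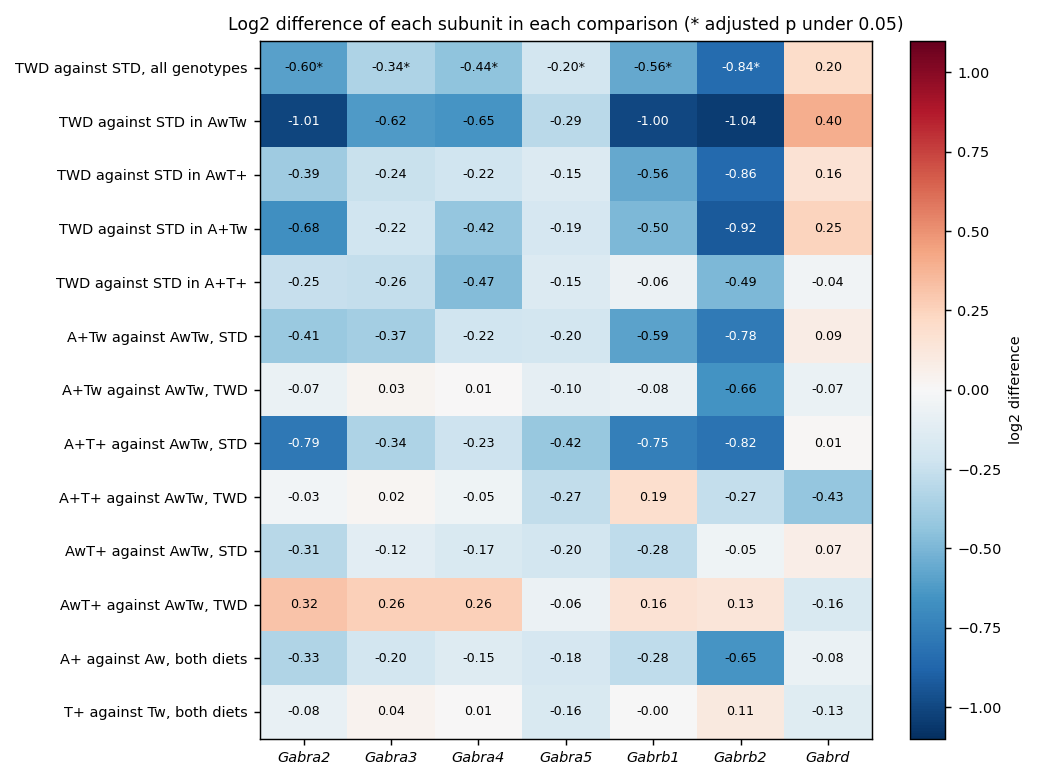
Log2 difference of each subunit gene (columns) in each comparison (rows), with the value written in the cell and blue for lower. An asterisk marks an adjusted p under 0.05, which only 6 cells of the top row have. The differences in AwTw mice reach −1.04 for Gabrb2, with none past the threshold.

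Set in order by mean, AwTw/STD mice had the highest level of all 6 alpha and beta genes, followed by AwT+/STD mice in each case. The lowest group was A+Tw/TWD for Gabra2, Gabrb1 and Gabrb2, A+T+/TWD for Gabra4 and Gabra5, and AwTw/TWD for Gabra3. Gabrb2 ranged from 9.28 ± 0.71 (SD, n = 6) in AwTw/STD and 9.26 ± 0.27 (n = 6) in AwT+/STD mice to 7.64 ± 1.06 (n = 6) in A+Tw/TWD mice. For Gabrd the order ran from 8.88 ± 0.33 (SD, n = 6) in AwTw/TWD to 8.48 ± 0.26 (n = 6) in AwTw/STD and 8.45 ± 0.35 (n = 6) in A+T+/TWD mice. Of the 49 steps between neighbours in these orders, 1 was larger than the larger SD of the pair, that between AwT+/STD and A+T+/STD for Gabrb2 (0.77). The other 48 neighbouring pairs did not differ beyond their spread.

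The A+Tw/STD mice split widely within the group. Their Gabrb2 values were 9.26, 6.87, 9.55, 9.15 and 7.58, and their Gabrb1 values 11.37, 9.20, 11.28, 10.65 and 9.56. The same 2 mice, replicates 2 and 5, were lowest for both genes and had the highest Gabrd of the group (8.88 and 8.85, against 8.08, 8.39 and 8.62). They also had its highest component scores (1.23 and 0.97, against −1.42, −1.31 and −0.45). Only these mice of the group had the label prefix PM, and the others had AM. The part of score or prefix in the split was not tested. The A+T+/STD mice had Gabrb2 at 8.37, 7.71, 9.05 and 8.86.

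Levels of different subunits were compared per length, as the mean value over 45 mice less the log2 length in kilobases of the longest transcript. Gabra5 was highest at 9.74, followed by Gabra3 at 7.77, Gabrd at 7.19, Gabra4 at 6.86, Gabrb1 at 6.57, Gabrb2 at 6.48 and Gabra2 at 6.45. Of the subunits used for comparison, Gabrq was lowest at 3.08. Gabra5 thus stood above the other 6 genes on this scale, while Gabrb1, Gabrb2 and Gabra2 were closer to each other than the SD of any of them over the mice. Which transcript is expressed is not known from values per gene, so the order rests on the annotated lengths. Without the length term Gabra5 was still highest (11.15), but Gabrb1 (10.35) lay above Gabra3 (9.65) and Gabrd (8.62).

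Among themselves, the 6 alpha and beta genes had r of 0.66 to 0.93 over 45 mice in their 15 pairs, and of 0.63 to 0.93 after the group means and batch were removed. In batch 1 the range was 0.74 to 0.97 and in batch 0 it was 0.11 to 0.88. Gabrd had r of −0.65 to −0.27 with the 6 genes over all mice, of −0.85 to −0.61 in batch 1 and of −0.15 to 0.56 in batch 0. The pairs share libraries, and all of the genes have correlations with the component score.

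The genes most like each subunit over 45 mice, by Pearson r after batch was removed, were B230334C09Rik, Pafah1b1 and Strn3 for Gabra2 (0.98, 0.97 and 0.97), Opcml and Zhx1 for Gabra3 (0.97 each) and Ppig, Ddx3x and Pkia for Gabra4 (0.91, 0.91 and 0.90). For Gabra5 they were Enc1, Slc1a1 and Isca1 (0.91, 0.90 and 0.89), for Gabrb1 Slc24a2, Arfgef3 and Cacna2d1 (0.98, 0.97 and 0.97) and for Gabrb2 Cpeb4, Ash1l and Map1b (0.98, 0.98 and 0.97). For Gabrd they were Cygb, Kcnj4 and Epop (0.81, 0.80 and 0.79). The third match of Gabra3 had no symbol and the same values as Zhx1. After the group means were also removed, the first match was the same for Gabra2, Gabra5, Gabrb1 and Gabrb2, and Zhx1, Pkia and Gm13889 came first for Gabra3, Gabra4 and Gabrd. The matches of Gabra2 had GC contents of 36.3% to 40.7% and those of Gabrd of 58.8% to 66.9%, against 38.4% and 54.7% for the subunits themselves.

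Of the subunit genes used for comparison, Gabrg1 (−0.60 ± 0.17), Gabrg3 (−0.33 ± 0.12) and Gabrq (−0.22 ± 0.08) were also lower on TWD over all genotypes and passed the test, with adjusted p of 0.0162, 0.0325 and 0.0397 by limma. Gabrg1 and Gabrg3 encode gamma subunits and Gabrq the theta subunit. Gabrr2, which encodes a rho subunit, was at −0.02 and did not pass. Gabrq and Gabrr2 were named after their values were seen, and further subunit genes are not reported here. The genes named thus give no share of the other subunits that passed. With the length and GC trend removed Gabrg1 (−0.28) still passed, and Gabrg3 and Gabrq did not. In batch 0 alone none of these genes passed by limma.

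Of 26 genes that anchor and move the receptors 4 were higher and 4 lower on TWD, with a median of −0.00136, a share close to the 29.4% of all genes. Arfgef2 was at −0.31 ± 0.09 and the synaptic adhesion gene Slitrk3 at −0.27 ± 0.08, while the actin binding profilin gene Pfn1 was at 0.30 ± 0.08 (adjusted p from 0.0158 to 0.0189 by limma). Of 9 genes of GABA synthesis, release and uptake 4 were lower and none higher, with a median of −0.13. Both glutamate decarboxylases were among them, Gad2 at −0.62 ± 0.17 and Gad1 at −0.27 ± 0.10, as were the GABA breakdown enzymes Abat at −0.24 ± 0.07 and Aldh5a1 at −0.23 ± 0.08 (adjusted p from 0.0157 to 0.0458 by limma). Aldh5a1 also passed narrowly in AwTw mice (−0.47 ± 0.15, adjusted p = 0.0498 by limma), where 9.35% of all genes passed. In 32 of the 45 fits that left out 1 mouse no gene, and so not Aldh5a1, passed in AwTw mice. Its AwTw difference was −0.12 in batch 0 alone, and with the length and GC trend removed it did not pass (adjusted p = 0.0925 by limma). Of 7 genes of GABA-B receptors and chloride transporters 3 were lower and none higher, with a median of −0.13: Slc12a2, which brings chloride into cells, at −0.56 ± 0.19, and the GABA-B auxiliary subunits Kctd12 at −0.38 ± 0.14 and Kctd16 at −0.27 ± 0.10 (adjusted p from 0.0304 to 0.0368 by limma). With the length and GC trend removed Arfgef2, Slitrk3, Gad2 and Abat still passed, where 12.7% of genes did. Pfn1, Gad1, Aldh5a1, Slc12a2, Kctd12 and Kctd16 did not (adjusted p from 0.0611 to 0.136 by limma). With the component score as a covariate none of the genes named here passed, and the sign of Kctd12 turned (0.02). None passed in batch 0 alone.

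Markers of cell types were counted in the diet difference over all genotypes, where 29.4% of all genes passed and 13.4% passed as lower. Neuron markers did not fall as a list, with 3 higher and 1 lower on TWD of 12 and a median of 0.07, and their summed level (log2) was 17.29 to 17.83 on STD and 17.07 to 17.69 on TWD. Of the interneuron markers 4 were higher and 2 lower of 10, and their summed level was 13.35 to 14.24 on STD and 13.48 to 14.39 on TWD. That level had r of −0.43 (Gabra5) to −0.83 (Gabrb1) with the alpha and beta genes and of 0.76 with Gabrd over 45 mice. For the alpha and beta genes, r was −0.69 to −0.56 with oligodendrocyte, −0.56 to −0.35 with microglia and −0.60 to −0.38 with endothelial markers. It was 0.31 to 0.61 with dentate granule and 0.30 to 0.56 with astrocyte markers. With pyramidal cell markers it was −0.50 to −0.07, with neuron markers −0.21 to 0.25 and with thalamus markers −0.27 to −0.18. Gabrd had r of 0.58 with pyramidal cell, 0.35 with neuron and 0.01 with dentate granule markers. Of the microglia markers 6 were higher and 1 lower of 12 (summed level 12.79 to 14.58 on STD, 13.01 to 14.41 on TWD), and of the oligodendrocyte markers 4 were higher and 1 lower of 10 (16.08 to 16.65 and 15.99 to 16.95). Of the astrocyte markers 2 were higher and 3 lower of 10 (15.76 to 16.24 and 15.59 to 16.31), and of the endothelial markers 3 were higher and 1 lower of 10 (11.13 to 11.85 and 11.08 to 11.91). None of the 15 choroid plexus markers passed, but all 15 were below 0 with a median of −0.54, against −0.44 for the subunits. In A+Tw mice only 5 of the 15 were below 0, with a median of 0.13. The diet difference in batch 1 less that in batch 0 was above 0 for all 15 (median 1.58, none called). The summed choroid plexus level ran from 10.35 to 17.29 on STD and from 10.05 to 18.12 on TWD, with AwTw/TWD replicate 3 the highest of all mice. Over 45 mice, this level had r of −0.55 (Gabra5) to −0.24 (Gabra2) with the alpha and beta genes. Dentate granule, pyramidal cell and thalamus markers had 0 higher and 1 lower of 8, 1 higher and 0 lower of 9, and 1 higher and 2 lower of 10. The part of any of these cell types in the subunit differences was not tested.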

How the data were processed

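Hippocampal RNA of 45 mice was sequenced by the authors as poly(A) libraries with single reads. Per the labels and methods, the authors checked reads with FastQC 0.11.8, trimmed them (Trimmomatic 0.38), discarded reads of rRNA and mitochondria (Bowtie2 2.2.3) and quantified transcripts on mm10 with kallisto 0.44.0. Genes with a mean count of 10 or less were dropped. The deposited values are on a log2-like scale, made by the authors with the variance-stabilizing transformation of DESeq2 1.22.2 and batch removal with limma 3.38.3. Every gene had equal means in both batches, so batch was removed without holding the groups in place, and batch was kept as a covariate here. The strand setting of kallisto and the transcript release are not given in the sources used here. Counts and depth per mouse are not part of the table, so count models were not used.

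Groups, diet and batch came from the labels. One limma fit (limma 3.58.1, R 4.3.3, mean trend) of the 8 groups and batch gave the contrasts within diet or genotype, and a second fit without interactions gave the diet difference over all genotypes, held for genotype and batch. Tests were two-sided and adjusted by Benjamini-Hochberg over all 15897 genes, with a threshold of 0.05. The fits were tested on simulated data with independent noise in each gene. Such data lack the component that the real genes share, so the test cannot show how many false calls it brings. Exact tests used every split within batch, and other permutation tests used 100000 permutations. Symbols, lengths and GC content were from GENCODE M21, and GC content was known for 98.7% of genes. Length and GC trends were removed from each mouse with splines. The component score applies the gene loadings of the first residual component to each mouse.

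The members and the gene lists were chosen with earlier results of these data known. Genes named beside the members are at most 4 per GABA list with the smallest adjusted p past the threshold in the diet difference over all genotypes or in AwTw mice, App and Prnp, and the 3 genes most like each member. Gabrq and Gabrr2 fall outside this rule and were named after their values were seen, and some genes that the rule names are not reported here. Alternatives covered batch, the prefix of the mouse labels, normalization, a filter on the lowest 25% of genes by mean, the trend, the score, the groups in the fit and each mouse left out. Leaving out the 2 lowest mice, the batch interaction and the alternatives for the differences of single members in A+ against Aw were added after the data were seen.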

Additional observations from a re-analysis of the deposited data

Results flagged for a closer look

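In 2 of 56 groups tested, each a subunit in a group of mice, 1 mouse stood apart by Dixon's test at its 95% critical value, where chance alone flags about 1 in 20. Gabra2 in A+Tw/TWD replicate 2 was 7.62, with the other 5 mice of the group at 8.55 or above. Gabra3 in A+T+/TWD replicate 1 was 8.28, with the other 5 mice at 9.53 to 9.81. The first mouse had the second lowest Gabrb2 of its group (6.57), and the second had the lowest Gabra2 and Gabrb2 of all 45 mice (6.63 and 6.15). Both mice were of batch 1 and had high component scores, 1.63 and 2.42.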

How the results depend on the processing

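The count of subunits lower or higher on TWD over all genotypes was 6 with all mice and 0 to 7 under the alternatives. It was 0 in batch 0 alone, 2 with the length and GC trend removed, 0 with the component score as a covariate and 0 without the 2 lowest mice, an alternative chosen after the data were seen. It was 1 to 7 when each mouse was left out in turn. It was 6 or 7 with no batch covariate, batch 1 alone, the label prefix, quantile normalization, the filter on the mean and no mean trend. In AwTw mice the count was 0, but 3 in batch 1 alone, 1 with the filter on the mean (Gabra3), and 0 to 7 when each mouse was left out. In A+T+ against AwTw on TWD it was 0, but 1 with the score. The other 13 counts were 0 under every alternative run. Signs turned with the score for the diet difference over all genotypes of Gabra2 (0.0378) and Gabrb1 (0.0315), and in AwTw mice for Gabra2 (0.17), Gabra3 (0.0121), Gabra4 (0.0107), Gabrb1 (0.0917) and Gabrb2 (0.34). In batch 0 alone they turned for Gabra5 over all genotypes (0.0275) and in AwTw mice for Gabra3 (0.0234), Gabrb1 (0.15), Gabrb2 (0.36) and Gabrd (−0.0520). For A+ against Aw they turned for Gabra2 in batch 0 (0.00754), Gabrd in batch 1 (0.0157) and Gabra4 with the score (0.0201). Which of batch, composition and the score stands behind these changes was not tested. No paired analysis was possible because replicate numbers follow the order of accession and pair no mice. Without depth, no counting error can be given, and groups of 4 to 6 mice leave wide intervals.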
